A study of Mus musculus with 5 samples.

Results

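Endothelial-like cells were a minor population among tdTomato+ cells sorted from mouse epithelioid sarcomas. Cells were kept if they had 500 or more detected genes and no more than 10% of their transcripts from mitochondrial genes. It was counted as endothelial-like if at least 4 of 8 endothelial genes (Pecam1, Cdh5, Kdr, Tie1, Emcn, Esam, Cldn5 and Egfl7) each had a unique molecular identifier (UMI, 1 counted transcript molecule). The rule found 68 cells among the 29412 kept cells of 4 sarcoma libraries, and the series as a whole held 37519 kept cells. Because these measured values chose the cells, the levels of the 8 genes and of other endothelial genes are given as a description, with no test.

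The sarcomas came from C57BL/6J mice of the genotype Hic1CreERT2/CreERT2;Rosa26LSLtdTomato/LSLtdTomato;Smarcb1FL/FL. In these animals the Hic1 locus drives a tamoxifen-dependent Cre, which switches on the red fluorescent protein tdTomato and deletes the floxed tumour suppressor gene Smarcb1. The muscle library came from hindlimb of Hic1CreERT2/CreERT2;Rosa26LSLtdTomato/+ animals, which carry 1 reporter allele and no floxed Smarcb1. All received 2.5 mg tamoxifen in 100 µL sunflower oil on 5 successive days at 8 weeks of age, then a 10-day washout, and FACS-purified cells entered 10x Chromium 3′ v2 libraries. Sarcomas 1 to 4 were taken at endpoint from shoulder, head, head/ear and hip, and the labels call the sorted cells mesenchymal progenitors. Nothing in the labels ties each sarcoma to an animal of its own, and p-values therefore apply only to these libraries. The edgeR fits below pool information on spread across genes. Their p-values and SEs are therefore not the spread of a single gene over libraries. Genotype was the same in all 4 sarcomas, and muscle contributed 1 library.

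Endothelial cells line blood and lymphatic vessels. Vascular endothelial growth factors (VEGFs) act on them through the receptors Flt1, Kdr and Flt4, angiopoietins through Tek, and Notch ligands such as Dll4 separate arterial and sprouting states. Lymphatic endothelium is specified by the transcription factor Prox1 and is known for the surface receptor Lyve1 and the chemokine Ccl21. Hic1, the driver of the label, is best known in mesenchymal progenitors and perivascular cells.

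The libraries held 151903246 to 213271163 UMIs in the sarcomas and 64061069 in muscle, with 6824 to 8206 kept cells per sarcoma (mean 7353 ± 626, SD, n = 4) and 8107 in muscle. Median depth was 20005 to 28658 UMIs per kept cell in the sarcomas and 7566 in muscle. Pairs of libraries shared 12 to 22 cell barcodes, and none of the 68 cells had a barcode that occurred in another library. Clustering of all kept cells gave 1 endothelial-like cluster, mural-like clusters (pericytes and smooth muscle), progenitor-like clusters (fibroblast-like mesenchymal cells), 1 tenocyte-like cluster of 506 cells (500 of them from muscle) and clusters that stayed unnamed. The unnamed clusters held 27817 of the 29344 other kept sarcoma cells. They include a cluster with 1716 cells of sarcoma 3 in which 9 progenitor markers were 4-fold higher, left unnamed because the tenocyte marker Comp was among its 10 leading genes. Ranges in parentheses after a level or share are exact 95% intervals, and the limit given for a count of 0 is that of 3 counts unless an exact interval is named. Both cover counting error only.

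Sarcoma 3 held most of the endothelial-like cells. There were 18 in sarcoma 1, 2 in sarcoma 2, 43 in sarcoma 3 and 5 in sarcoma 4. These were 0.242% (0.144 to 0.382), 0.0244% (0.00295 to 0.0880), 0.619% (0.448 to 0.833) and 0.0733% (0.0238 to 0.171) of kept cells, with a mean of 0.240 ± 0.269% (SD, n = 4). The interval of sarcoma 3 lay above those of the other sarcomas, and the SD between sarcomas exceeded the mean. Without sarcoma 3 the count was 25. Muscle had 0 of 8107 cells, which allows a share of up to 0.0370%, and 3 of its cells reached 3 markers. Muscle cells were the shallowest, and a single muscle library gives no test.

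**Figure D1:**
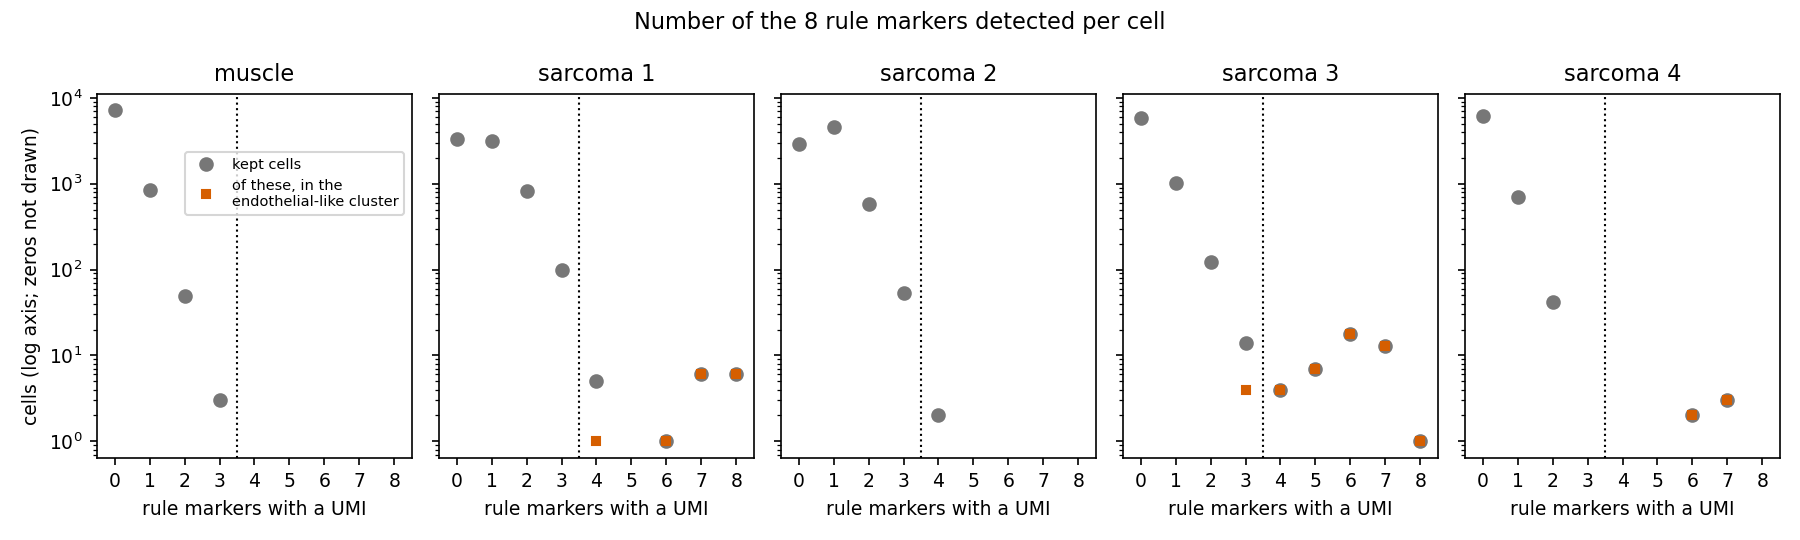
Number of kept cells (log axis) by the number of the 8 rule markers with a UMI, in 1 panel per library; squares count the cells that fell in the endothelial-like cluster and the dotted line marks the rule. Sarcoma 3 has a separate group of cells at 4 to 8 markers, sarcoma 1 at 6 to 8 and sarcoma 4 at 6 and 7, whereas sarcoma 2 stops at 4.

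The number of markers per cell separated a distinct group of cells in sarcomas 1, 3 and 4. In sarcoma 1, 100 cells had 3 markers, 5 had 4, none had 5, and 13 had 6 to 8. In sarcoma 4 no cell had 3 to 5 markers and 5 had 6 or 7. In sarcoma 3 the counts were 14 cells with 3 markers, 4 with 4, 7 with 5, 18 with 6, 13 with 7 and 1 with 8. Sarcoma 2 had 54 cells with 3 markers, 2 with 4 and none above. Just inside the rule, the 5 cells with 4 markers in sarcoma 1 held a median of 2 of 25 further endothelial genes, the same as the 100 cells with 3 markers just outside it. The 4 cells with 4 markers in sarcoma 3 held a median of 7 of those 25 genes, against 3 in the cells with 3 markers.

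Clustering on variable genes placed 62 of the 68 cells in the single endothelial-like cluster, namely 14 from sarcoma 1, 43 from sarcoma 3 and 5 from sarcoma 4. The other 6, 4 in sarcoma 1 and both cells of sarcoma 2, lay in unnamed clusters, and each had exactly 4 markers. Cldn5, a tight junction claudin of endothelium, was one of the 4 in each of them. Cldn5 was not restricted to endothelial-like cells in those 2 tumours. It was detected in 39.1% of the other cells of sarcoma 1 and 59.2% of those of sarcoma 2, against 0.695% in sarcoma 3, 0.0147% in sarcoma 4 and 0.0123% in muscle. The cluster was named from a marker list that holds the 8 rule genes, so its overlap with the rule is a description and no independent check of the name. Outside it the name rests on little: in the other 6 cells Kdr and Tie1 were each detected in 1 cell, Emcn in none, and a median of 2.5 of the 25 further endothelial genes was present.

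The 8 rule genes differed between libraries. Pecam1, the adhesion molecule CD31, stood at 459.5, 27.3, 420.0 and 805 CPM (UMIs of a gene per 1000000 UMIs summed over the cells) in the endothelial-like cells of sarcomas 1 to 4, against 4.0, 0.7, 3.7 and 0.4 in other cells. Cdh5, the cadherin of endothelial junctions, stood at 598, 13.6, 559 and 1420 CPM. Kdr, the main signalling receptor for VEGF-A, stood at 191, 13.6, 352 and 331 CPM. Sarcoma 2, whose 2 cells gave 2 Pecam1 UMIs and 1 UMI each of Cdh5 and Kdr, was low in these 3 genes but not in Cldn5, which stood at 343, 341, 1146 and 1231 CPM. In sarcoma 2, 24 Cldn5 UMIs lay in 1 cell of 70587 UMIs. In sarcoma 1 the 4 cells outside the cluster held 180360 of the 376525 UMIs and lowered most endothelial levels. They raised Cldn5, with a median of 12.5 UMIs per cell against 2 in the 14 clustered cells. Cldn5 was common in the other cells of both tumours, as given above. The 14 clustered cells alone stood at 856 CPM for Pecam1, 923 for Cdh5 and 367 for Kdr, which puts Kdr above sarcoma 3. Below, a value for the 14 clustered cells follows where it changes an order between libraries or a level that is compared. Among the clustered cells the receptor tyrosine kinase gene Tie1 was detected in 13 of 14, 33 of 43 and 1 of 5 cells of sarcomas 1, 3 and 4. Egfl7, which encodes a secreted endothelial factor, was detected in 66 of the 68 cells.

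Of 25 further pan-endothelial genes, 23 were at least 4-fold higher in the pooled endothelial-like cells than in the pooled other cells (CPM plus 1). Of all 7171 genes with at least 20 CPM in either pool, 6.67% were at least 4-fold higher and 3.15% at least 4-fold lower; nothing is read from the comparison because the rule chose the cells. The exceptions were Ramp2 and Cd34. Ramp2, an adrenomedullin co-receptor, stood at 812.5 CPM in the endothelial-like cells and at 718 in other cells. Cd34, a sialomucin shared with progenitors, stood at 168 against 49.9. Ecscr, an endothelial surface regulator, stood at 258, 0, 539 and 615 CPM in sarcomas 1 to 4, and the transcription factor gene Sox18 at 332, 0, 388 and 426. In the 14 clustered cells of sarcoma 1 Sox18 stood at 637 CPM, the highest of the libraries. Among the 12 genes with the largest ratio over all genes were Icam2 (154 UMIs against 46 in all other sarcoma cells), Myct1 (147 against 10) and Gpihbp1 (159 against 9). Cd93 (192 against 197) and Gimap6 (231 against 247) were on the same list, and none of these 5 genes had a UMI in the cells of sarcoma 2.

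Lymphatic genes were found in the endothelial-like cells of sarcoma 3. Ccl21a, a chemokine of lymphatic endothelium, had 2543 UMIs (5111 CPM) in the 43 cells of sarcoma 3 and 0 in the cells of the other 3 sarcomas. Mmrn1, a multimerin of lymphatic endothelium, had 591 UMIs there and 0 elsewhere. Prox1 had 183 and 0. Lyve1 had 298 in sarcoma 3, 1 in sarcoma 1 and 0 in the other 2. Flt4, the VEGF-C receptor, stood at 23.9, 0, 492 and 47.3 CPM in sarcomas 1 to 4, and Stab1, a scavenger receptor, at 39.8, 0, 661 and 94.7. Pdpn, the podoplanin gene, was similar in endothelial-like and other cells of sarcoma 3, at 368 and 385 CPM. A count of 0 allows up to 7.97 CPM in sarcoma 1, 40.9 in sarcoma 2 and 142 in sarcoma 4. The 5 cells of sarcoma 4 therefore limit Ccl21a and Mmrn1 to levels below that of sarcoma 3, and Prox1 likewise. Ccl21a lies at chromosome 4, 42772860 to 42773993 (mm10), in a family of near-identical copies, and its symbol is used by more than 1 feature. Reads of Ccl21a and of the predicted gene Gm21541 (268 UMIs, in sarcoma 3) may be split between copies, so the division between them is uncertain.

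The cells of sarcoma 3 fell into a lymphatic and a non-lymphatic set. With a split chosen after these levels were seen, 37 of the 43 cells had UMIs of at least 2 of Prox1, Lyve1, Mmrn1 and Ccl21a, and 6 did not. Ccl21a was detected in 37 of the 37 cells, Mmrn1 in 36, Prox1 in 35 and Lyve1 in 26. None of the other 6 had any of these genes. Among the rule genes, Esam, Emcn and Cldn5 differed in detection between the sets and were picked out after their values were seen. The other rule genes were detected in most cells of both sets. Pecam1 was found in 35 of the 37 and 6 of the 6, Cdh5 in 36 and 5, Kdr in 35 and 6, Tie1 in 29 and 4, and Egfl7 in 37 and 6. Esam, an immunoglobulin-family adhesion molecule, was detected in 2 of the 37 cells and 5 of the 6. Emcn, a sialomucin of venous and capillary endothelium, was detected in 8 of the 37 and 6 of the 6. Cldn5 ran the other way, with 37 of 37 and 1 of 6. In CPM, Cldn5 stood at 1337 (568 UMIs) in the lymphatic set and at 27.5 (2 UMIs) in the 6 cells, while Emcn stood at 30.6 (13 UMIs) and 978 (71 UMIs). The CPM values of the 6 cells rest mostly on 1 cell. It held 53717 of their 72605 UMIs and 40 of their 71 Emcn UMIs.

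**Figure D2:**
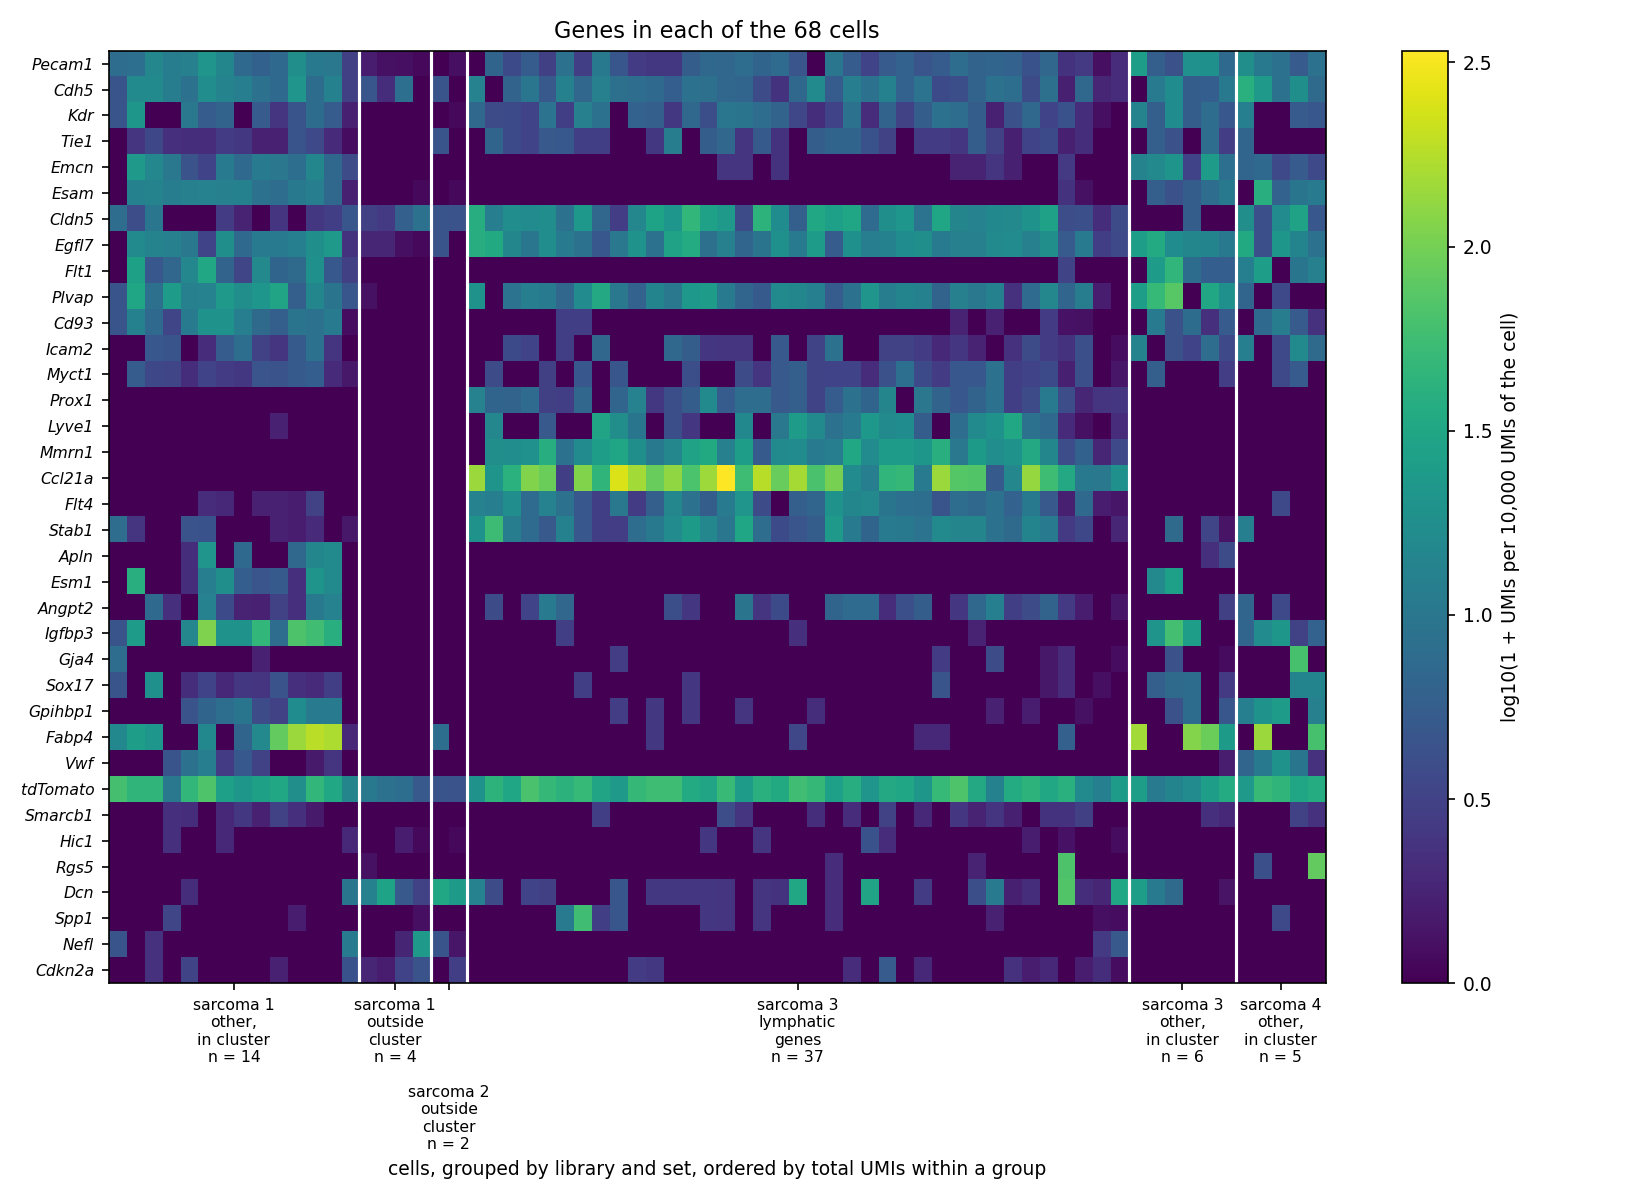
Each of the 68 cells (columns, grouped by library and set) against 36 genes (rows), coloured on a log scale by the gene's UMIs relative to the cell's total. Ccl21a, Mmrn1, Prox1 and Lyve1 fill the 37-cell block of sarcoma 3, where Esam and Emcn are mostly absent; the 6 cells outside the cluster hold few endothelial UMIs.

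Tip cell and sprouting genes were present in sarcomas 1, 3 and 4, with summed levels of 4454, 3193 and 4875 CPM, or 8269 in the 14 clustered cells of sarcoma 1, and 2 of them came mostly from sarcoma 1. Over all measured genes, 6.67% were at least 4-fold higher in the pooled endothelial-like cells than in other cells, and the rule chose these cells. Of 14 tip cell and sprouting genes, 12 were at least 4-fold higher. The basement membrane collagen genes Col4a1 and Col4a2 were among the highest, at 1357, 13.6, 890 and 2508 CPM for Col4a1 and 741, 27.3, 380 and 1656 CPM for Col4a2 in sarcomas 1 to 4. Plvap, which encodes the diaphragm protein of fenestrated capillaries, stood at 672, 0, 1035 and 94.7 CPM in sarcomas 1 to 4, and at 1285 CPM in the 14 clustered cells of sarcoma 1, above sarcoma 3. Angpt2, an antagonist and partial agonist of Tek, stood at 186, 0, 229 and 94.7. All of its UMIs in sarcoma 1 lay in the 14 clustered cells, whose level was above that of sarcoma 3. Esm1 and Apln, secreted products of tip cells, were picked out after their values were seen. Esm1 stood at 377, 0, 22.1 and 0 CPM and Apln at 250, 0, 32.2 and 0 (724 and 479 CPM in the 14 clustered cells of sarcoma 1), so 142 of 153 Esm1 UMIs and 94 of 110 Apln UMIs came from sarcoma 1. In sarcoma 4 the 0 allows up to 142 CPM, which the Esm1 and Apln levels of sarcoma 1 exceeded.

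Arterial genes other than Unc5b stood highest in the 5 cells of sarcoma 4 among those named here, and capillary genes were high in sarcomas 1 and 4. The summed level of the arterial list was 282, 0, 440 and 3502 CPM in sarcomas 1 to 4, and 505 in the 14 clustered cells of sarcoma 1. Gja4, the connexin 37 gene, stood at 7.97 (3 UMIs), 0, 28.1 (14 UMIs) and 1373 (29 UMIs, all in 1 cell) CPM. Sox17, an arterial transcription factor gene, stood at 95.6, 0, 52.3 and 757, and Dll4 at 82.3, 0, 38.2 and 284. In sarcoma 4 the Sox17 UMIs came from the cell with the Gja4 UMIs (6) and from a cell with 117 mural-gene UMIs (10). Unc5b, a netrin receptor gene on the same list, was highest in sarcoma 3 at 267 CPM. Gpihbp1, which carries lipoprotein lipase across capillaries, stood at 268, 0, 64.3 and 1231 (515 in the 14 clustered cells). The fatty acid-binding protein gene Fabp4 stood at 2969, 27.3, 569 and 4354. In the 14 clustered cells of sarcoma 1 it stood at 5699, above sarcoma 4, where 47 of its 92 UMIs lay in the cell with 117 mural-gene UMIs; Fabp4 was also a leading gene of a mural-like cluster, and the part of mural RNA was not tested. The summed capillary list stood at 8478 CPM in the 14 clustered cells of sarcoma 1 and 8566 in sarcoma 4. The fatty acid receptor gene Cd36 stood at 151, 13.6, 30.1 and 899. Fabp5 was highest in sarcoma 1, at 802 CPM, where other cells stood at 430. The values of sarcoma 4 rest on 21129 UMIs in all, so only levels far apart can be told from each other.

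**Figure D3:**
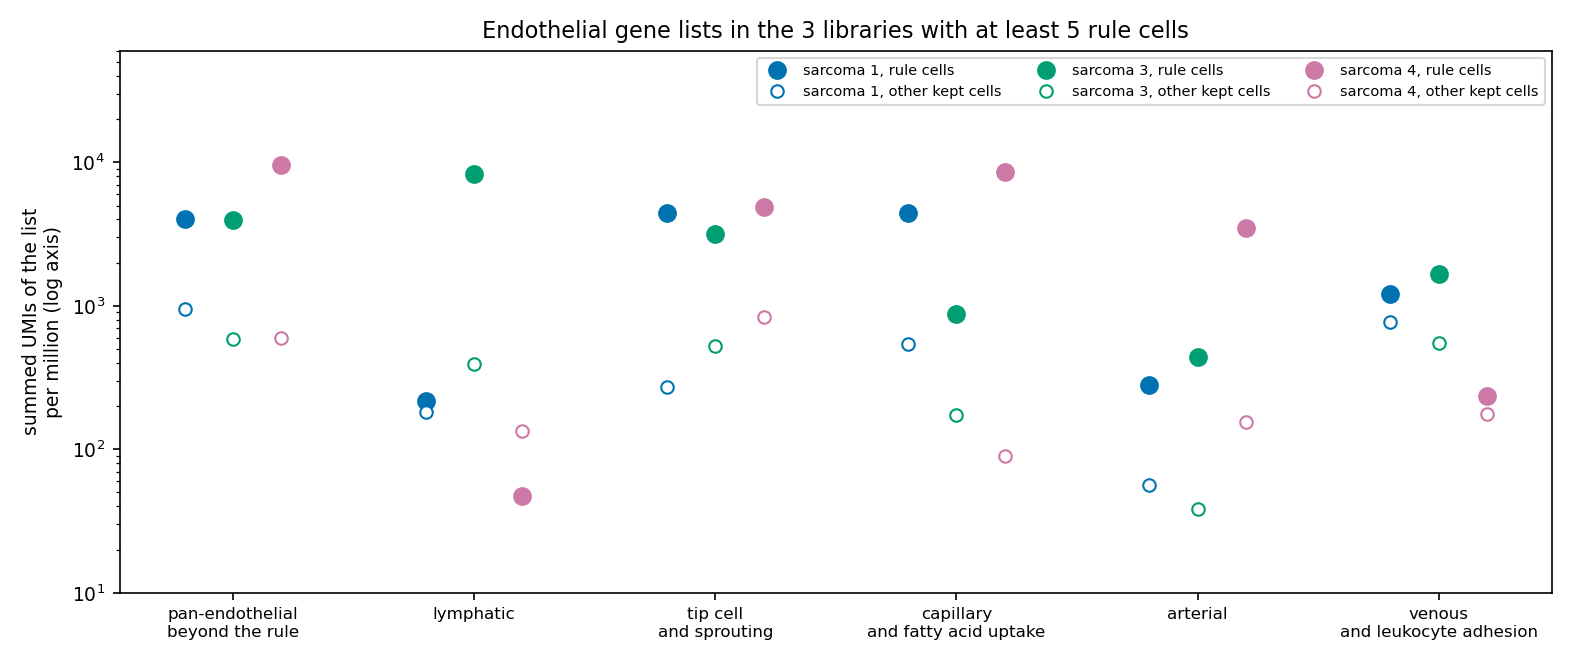
Summed CPM (log axis) of 6 endothelial gene lists in the endothelial-like cells (filled) and other kept cells (open) of the 3 sarcomas with at least 5 endothelial-like cells. The lymphatic list stands at 8332 in sarcoma 3 against 218 and 47.3 in sarcomas 1 and 4, and the arterial list at 3502 in sarcoma 4 against 282 and 440; sarcoma 1 includes its 4 cells outside the cluster.

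Flt1, a VEGF receptor, was scarce in the lymphatic set and Kdr was not: Kdr was detected in 35 of the 37 lymphatic cells and in 6 of the other 6. Flt1 stood at 438, 0, 117 and 1089 CPM in sarcomas 1 to 4, and within sarcoma 3 it had 7 UMIs in the 37 lymphatic cells and 51 in the other 6. Of those 51, 25 lay in 1 cell of 53717 UMIs. The neuropilin genes encode VEGF co-receptors. Nrp1 stood at 271, 13.6, 62.3 and 947 and Nrp2 at 69.1, 0, 486 and 237. Over all measured genes, 6.67% were at least 4-fold higher in the pooled endothelial-like cells, and nothing is read from the comparison because the rule chose the cells. Of the 12 measured ligand and receptor genes 9 were at least 4-fold higher. The ligand genes Vegfa and Vegfc, picked out after their values were seen, were not: Vegfa stood at 26.8 CPM in the pooled endothelial-like cells and 61.2 in the pooled other cells, and Vegfc at 29.9 and 39.5.

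The next counts, for genes of venous identity, Notch signalling, junctions, blood flow and mural cell recruitment, stand beside the 6.67% of all measured genes that were at least 4-fold higher, and no difference between lists was tested. Of 7 measured venous and adhesion genes 3 were at least 4-fold higher, led by Lrg1, a secreted glycoprotein gene, at 640, 13.6, 864 and 47.3 CPM (1229 in the 14 clustered cells of sarcoma 1). Nr2f2, the venous and lymphatic transcription factor COUP-TFII, stood at 31.9, 0, 478 and 94.7, against 26.8, 21.4, 226 and 163 in other cells. Of 9 measured Notch genes 4 were higher, and the Notch target gene Hes1 stood at 303, 13.6, 1150 and 1041. Of 8 junction genes 2 were higher, Jam2 and F11r, both junctional adhesion molecules. Of 11 blood flow and coagulation genes 3 were higher, and Klf2, a flow-responsive transcription factor gene, stood at 321, 27.3, 707 and 3455. Of 5 genes for signals to mural cells 3 were higher, among them Pdgfb at 197, 0, 62.3 and 189 (377 in the 14 clustered cells of sarcoma 1). The phosphatase gene Dusp2, one of the 12 with the largest ratio, stood at 31.9, 0, 452 and 94.7.

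Npy, Ecm1 and Rgs5 were among the genes that varied most between libraries, and their levels in other cells or in single cells are given beside them. Npy, the neuropeptide Y gene, had 640 of its 641 UMIs in sarcoma 3, at 1286 CPM, where other cells stood at 3165. Ecm1, an extracellular matrix gene, stood at 948 CPM in sarcoma 1, where other cells stood at 902, and 43 of its 357 UMIs lay in the 14 clustered cells (219 CPM). Rgs5, a pericyte gene, had 197 of its 199 UMIs in sarcoma 3 in 1 cell and 64 of its 65 UMIs in sarcoma 4 in 1 cell. The part of other cells' RNA in these values was not tested.

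All 68 cells carried tdTomato transcripts. tdTomato stood at 1825, 341, 3175 and 3739 CPM in the endothelial-like cells of sarcomas 1 to 4, against 713, 358, 1390 and 278 in the other cells. The endothelial-like cells were higher in sarcomas 1, 3 and 4 by 2.56-fold, 2.28-fold and 13.4-fold, and sarcoma 2, with 25 UMIs in 2 cells, did not differ beyond its counting interval (220 to 503). Without the 6 cells outside the cluster, sarcoma 1 stood at 2901, while the 4 cells left out stood at 654. Other cells also had tdTomato in 91.7% to 98.9% of cells per sarcoma. Thinned to 2000 UMIs per cell, the endothelial-like cells of sarcomas 1, 3 and 4 held a mean of 6.72, 6.41 and 8.25 tdTomato UMIs, against 1.5, 2.85 and 0.578 in other cells. Thinning left out 0, 2 and 1 endothelial-like cells and 120, 142 and 348 other cells as too shallow.

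In a fit over 14049 genes with library as the block (edgeR quasi-likelihood test on counts summed per library, sarcomas 1, 3 and 4; sarcoma 2 left out for having fewer than 5 cells), the tdTomato difference was not called. Its log2 difference was 1.57 ± 0.64 (SE, n = 3 libraries, higher in 3 of 3) with a Benjamini-Hochberg adjusted p of 0.143. It was called with only the cells in the endothelial-like cluster (1.82 ± 0.58, adjusted p = 0.0243), with scaling by library size (2.04 ± 0.39, adjusted p = 0.00166) and without sarcoma 4 (0.99 ± 0.27, adjusted p = 0.0177). The exact sign-flip permutation test over the 3 libraries gave a two-sided p of 0.25, the smallest that 3 libraries allow. The log2 ratios of the 3 libraries (CPM plus 1) had a mean of 2.10 and an SD of 1.43.

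Smarcb1 transcripts stood higher in the endothelial-like cells of sarcomas 1, 3 and 4 than in the other cells of the same tumours. Smarcb1 encodes a subunit of SWI/SNF, a complex that moves nucleosomes, and lies on chromosome 10 from 75896769 to 75921617 on the minus strand (mm10, GENCODE annotation). It stood at 31.9 (16.5 to 55.7), 0 (0 to 50.3), 70.3 (49.0 to 97.8) and 94.7 (11.5 to 342) CPM in the endothelial-like cells of sarcomas 1 to 4, from 12, 0, 35 and 2 UMIs. The other cells of the same libraries stood at 2.42, 3.02, 20.4 and 0.474 CPM, and the unnamed clusters at 0.395, 0.980, 15.2 and 0.212. The intervals of the endothelial-like cells lay above the other cells in sarcomas 1, 3 and 4. The 14 clustered cells of sarcoma 1 stood at 61.2 CPM, and the 6 cells outside the cluster had 0 UMIs in all, with an interval that reaches 14.5 CPM. In muscle, where Smarcb1 is not floxed, the cells stood at 88.7 CPM. The 3′ counts do not show which exons a transcript holds.

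**Figure D4:**
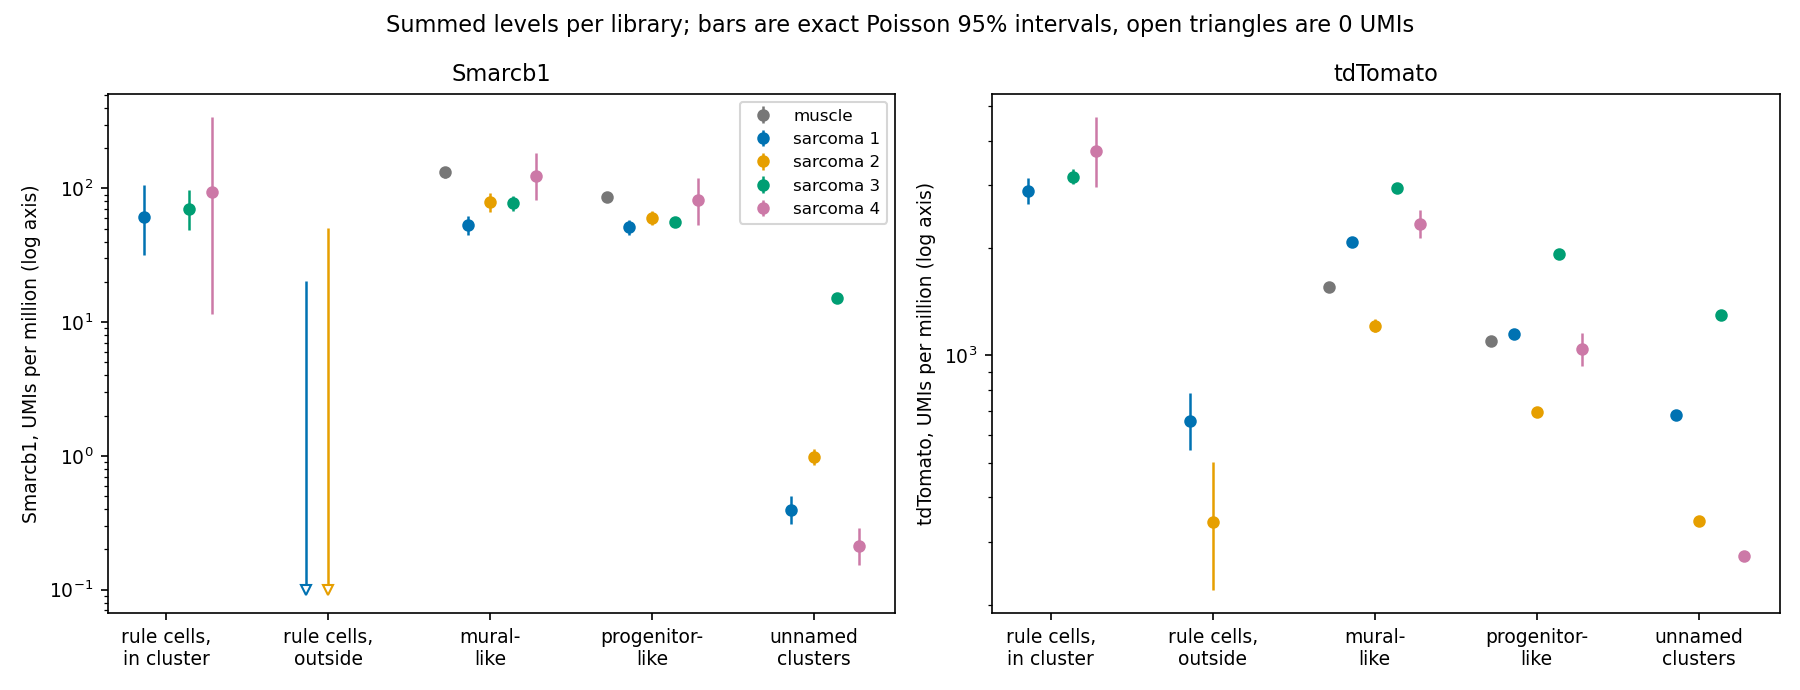
Summed Smarcb1 (left) and tdTomato (right) CPM (log axes) in endothelial-like cells inside and outside the cluster, mural-like, progenitor-like and unnamed-cluster cells of each library, with exact Poisson 95% intervals. Smarcb1 in the clustered endothelial-like cells stands between 61.2 and 94.7, mural-like cells between 52.9 and 125 and progenitor-like cells between 51.5 and 81.5, while unnamed clusters stand between 0.212 and 15.2.

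The Smarcb1 difference was called in the same edgeR fit, at a log2 difference of 2.90 ± 0.62 (SE, n = 3 libraries, higher in 3 of 3) with an adjusted p of 1.81e-04. The call was lost without sarcoma 1 (2.74 ± 1.14, adjusted p = 0.252), where 12 of the 49 Smarcb1 UMIs lay. It was also lost with a rule of 3 markers (1.41 ± 0.49, adjusted p = 0.285) and after thinning, which leaves sarcoma 4 out of the fit (1.26 ± 1.29, adjusted p = 0.869). Without the endothelial-like cells that held more UMIs than the median cell of their library, the difference was 3.58 ± 0.80 with an adjusted p of 2.60e-04. By cell, 8 of 18, 16 of 43 and 2 of 5 endothelial-like cells of sarcomas 1, 3 and 4 had a Smarcb1 UMI (44.4%, 37.2% and 40.0%), at median depths of 14129, 7419 and 3798 UMIs. In the unnamed clusters of the same libraries 0.757%, 19.1% and 0.575% of cells had one, at median depths of 24478, 19862 and 28764 UMIs. Thinned to 2000 UMIs, the shares were 11.1% (1.38 to 34.7), 7.32% (1.54 to 19.9) and 25% (0.631 to 80.6) of endothelial-like cells and 0.727% (0.545 to 0.949), 3.96% (3.51 to 4.45) and 0.155% (0.0741 to 0.284) of other cells. These intervals overlapped in sarcoma 3 and were apart in sarcomas 1 and 4. The exact sign-flip permutation test over libraries gave a two-sided p of 0.25, the smallest possible with 3. Its log2 ratios per library (CPM plus 1) had a mean of 3.68 and an SD of 2.17, wider than the SE of the fit.

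Against mural-like cells, the other vascular class of the sort, neither gene was called. Mural-like cells had 52.9, 78.9, 77.3 and 125 Smarcb1 CPM in sarcomas 1 to 4 and 2083, 1212, 2952 and 2336.5 tdTomato CPM. The log2 difference of endothelial-like minus mural-like cells was -0.51 ± 0.36 for Smarcb1 (edgeR quasi-likelihood test, adjusted p = 0.604) and -0.01 ± 0.42 for tdTomato (adjusted p = 0.995). The SEs come from the fit on the same 3 libraries. The fit includes the 4 cells of sarcoma 1 outside the cluster. With them sarcoma 1 stood below its mural-like cells in both genes, and its 14 clustered cells alone stood above. No fit of clustered cells alone against mural-like cells was run. The differences do not show that the classes are equal. In that fit 354 of 5976 genes were called (5.92%), 159 higher (2.66%) and 195 lower (3.26%). That count was 206 without sarcoma 3 and 575 without sarcoma 4. Higher calls outnumbered lower ones without sarcoma 1 (199 and 181). Of the lists, 8 of 12 mural genes and 3 of 8 tested progenitor genes were lower than in mural-like cells. Of 12 tested G2/M genes Birc5, the survivin gene, was higher (log2 difference 1.78 ± 0.38, edgeR adjusted p = 0.0376). G2/M UMIs were concentrated in few cells. In sarcoma 1, 209 of 431 lay in the clustered cells, and 117 of those in 1 cell with 109 sarcoma-gene UMIs. In sarcoma 3, 381 and 174 of 708 lay in single cells. The part of these cells in the Birc5 call was not tested. On counts simulated for this comparison the test made 25 false calls among 5976 genes, so a single call such as Birc5 is uncertain.

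Hic1, whose locus carries the Cre, stood at 23.9, 13.6, 18.1 and 0 CPM in the endothelial-like cells, from 9, 1, 9 and 0 UMIs, and at 25.8, 28.2, 25.8 and 0.897 in other cells. The log2 difference was -0.50 ± 0.63 (edgeR quasi-likelihood test, adjusted p = 0.791). In sarcoma 4 the 0 allows up to 142 CPM, so a difference there was not detectable at this depth.

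Of the 14049 genes, 977 were called in the comparison of endothelial-like with other cells (6.95%), 584 higher (4.16%) and 393 lower (2.8%). Leaving out sarcoma 1 gave 433 calls, leaving out sarcoma 3 gave 275, and leaving out sarcoma 4 gave 1149 (556 higher, 593 lower). Scaling moved the centre: the median log2 difference over all genes was -0.28, and 0.03 with scaling by library size, under which 583 genes were higher and 255 lower. Among genes on lists that are not endothelial, 27 of 157 were called, 7 higher and 20 lower. That count was 10 without sarcoma 1, 8 without sarcoma 3 and 47 without sarcoma 4.

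Progenitor genes were lower in the endothelial-like cells. Over all 14049 tested genes, 393 were called lower (2.8%), and the counts of lower genes in this paragraph stand beside that share. Of 13 progenitor genes tested, 11 fell and none rose. The list's median log2 difference was -3.91 (-3.63 with the 1 gene that had no UMI at its bound), against -0.28 over all genes. The other cells include the progenitor-like clusters and the sarcoma 3 cluster with progenitor markers given above, and their part in these calls was not tested. Col1a1, the fibrillar collagen gene, stood at 2.66, 239 and 94.7 CPM in sarcomas 1, 3 and 4, against 287, 5131 and 990 in other cells (log2 difference -5.12 ± 0.79, edgeR adjusted p = 4.36e-08). Of 5 tenocyte genes 4 fell, Tnmd, Fmod, Comp and Thbs4. Of 10 sarcoma genes, a list that an earlier look at these libraries chose and that is not independent evidence of its direction, 4 fell (Spp1, Nefl, S100a5 and Pla2g7) and none rose. Spp1, the osteopontin gene, stood at 13.3, 88.4 and 47.3 CPM against 601, 273 and 919.5 in other cells (log2 difference -3.94 ± 0.74, edgeR adjusted p = 1.12e-05).

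A few genes of other lists were higher, beside 4.16% called higher among all 14049 tested genes. They are given as single calls, and nothing is read from them about their lists. Of 12 mural genes Kcnj8 and Abcc9, the subunits of a vascular ATP-sensitive potassium channel, rose and the other 10 did not pass the test. Abcc9 stood at 69.1, 46.2 and 379 CPM in sarcomas 1, 3 and 4 against 7.24, 24.3 and 0.701 in other cells, and its 8 UMIs in sarcoma 4 came from 1 cell. The summed mural list stood at 173, 13.6, 914 and 5632 CPM in the endothelial-like cells of sarcomas 1 to 4 and at 340, 253, 991 and 28.7 in other cells, and its part in these 2 calls was not tested. Of 10 MHC class I genes H2-K1 rose, at 935, 1023 and 1183 CPM against 382, 254 and 28.9, but near-identical class I genes may share reads, so the gene is uncertain. Of 20 SWI/SNF subunit genes Smarcb1 was the 1 called, and the list's median log2 difference was -0.04. Of 16 interferon response genes Rsad2 rose and Ifit1 fell. Of 15 S phase genes Tyms rose, and of 15 immediate-early and heat shock genes Atf3 rose. None of 18 G2/M genes was called by edgeR against other cells; the list's median was 1.14, and 10 of the 68 cells had at least 5 of the 18 genes. No gene was called on the MHC class II, glial, myogenic, haematopoietic, platelet and erythroid or keratinocyte lists, of which 4, 5, 2, 7, 5 and 1 genes were tested. Over all tested genes 2159 had an unadjusted p below 0.05.

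Haematopoietic RNA was nearly absent. Ptprc, the CD45 gene, had 0 UMIs in the 68 cells, and 57 of the 68 had none of 18 haematopoietic genes. The summed level of the list was 5.31, 0, 16.1 and 47.3 CPM in sarcomas 1 to 4, against 170.5, 17.6, 43.0 and 21.3 in other cells.

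Signs of a second cell in the same droplet differed between cells and with the measure. Endothelial-like cells were shallower than the tumour in 3 libraries, with median UMIs of 14129, 36687, 7419 and 3798 against library medians of 23971, 24914, 20005 and 28658. Of the 62 clustered cells 7 exceeded their library's median, compared with 5 of the 6 outside the cluster. The latter held 11 to 315 UMIs of 10 sarcoma genes, or 1.60 to 4.22 per 1000 UMIs, near the medians of the unnamed clusters in sarcomas 1 and 2 (3.07 and 3.95). The 14 clustered cells of sarcoma 1 had a median of 0.170 per 1000, the 37 lymphatic cells of sarcoma 3 had 0.257 against 1.65 in its unnamed clusters, and the 5 cells of sarcoma 4 had 0.214 against 1.07.

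**Figure D5:**
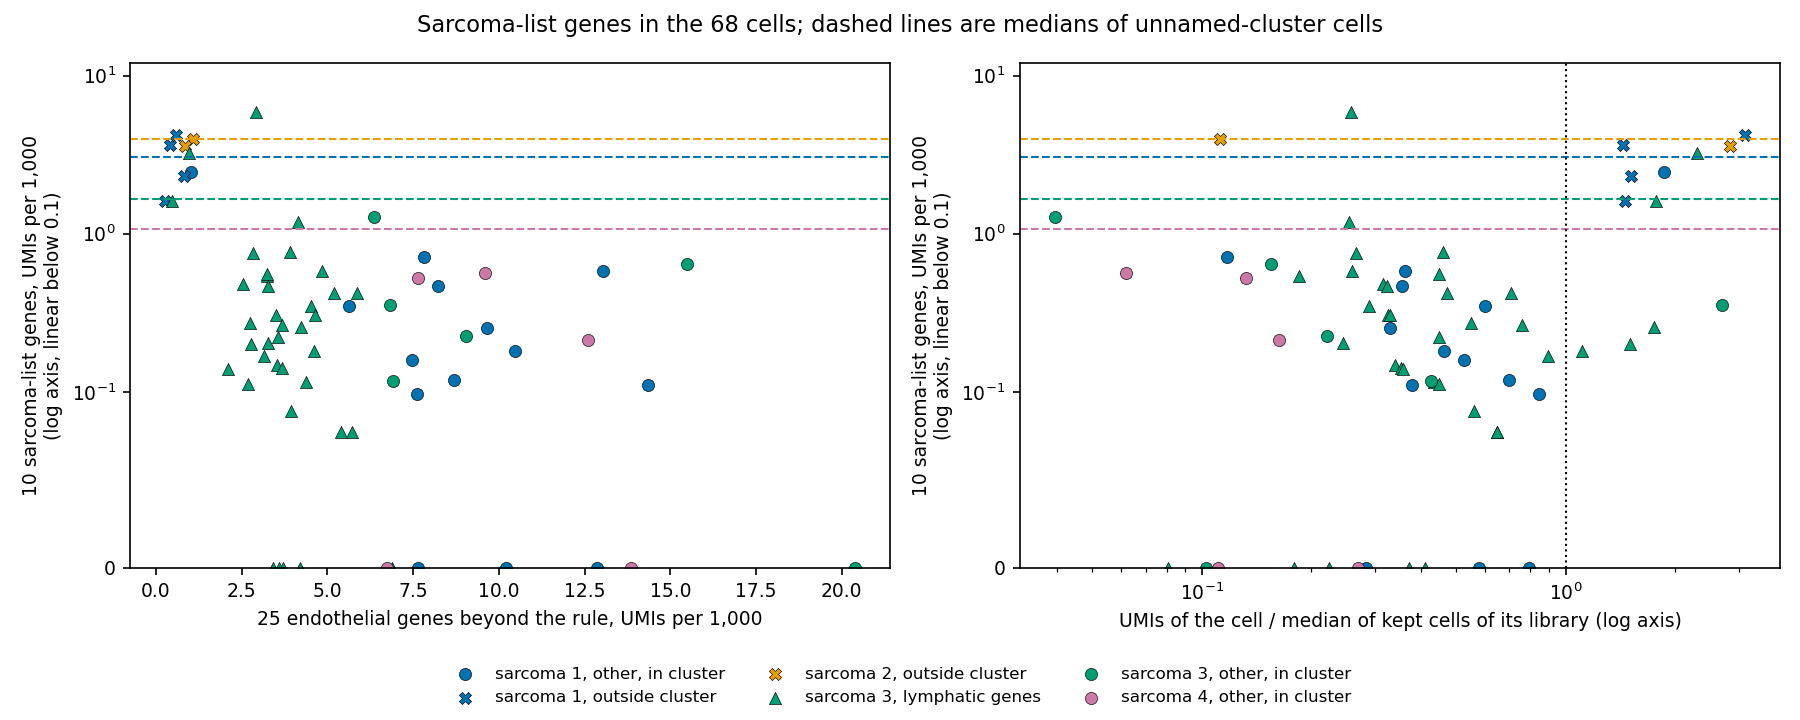
UMIs of 10 sarcoma genes per 1,000 UMIs in each of the 68 cells, against the 25 further endothelial genes per 1,000 UMIs (left) and against total UMIs relative to the library median (right); dashed lines are medians of unnamed-cluster cells. The 6 cells outside the cluster sit at 1.60 to 4.22 with few endothelial UMIs, while most clustered cells sit below 1 and left of the dotted line.

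Single cells departed from this. In sarcoma 1 the deepest clustered cell held all 8 markers, 44628 UMIs, 109 UMIs of the sarcoma genes and no Smarcb1. In sarcoma 3, cells of 45987 and 35309 UMIs held 149 and 57 UMIs of the sarcoma genes, and neither had a Smarcb1 UMI. The cell of 45987 UMIs also held 453 UMIs of progenitor genes. The deepest clustered cell of sarcoma 3, with 53717 UMIs and none of the 4 lymphatic genes of the split, held 191 UMIs of progenitor genes, 168 of them Gsn. It also held 174 UMIs of G2/M genes, 19 of the sarcoma genes and 5 of Smarcb1. The only cell of sarcoma 3 with 8 markers held 30011 UMIs, with 354 of 12 mural genes, 449 of 13 progenitor genes and 4 of Smarcb1. A cell of 5134 UMIs had 30 sarcoma-gene UMIs, of which 29 were Spp1. In sarcoma 4, 1 cell of 7707 UMIs held 117 mural-gene UMIs.

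After thinning to 2000 UMIs, at least 2 of the 10 sarcoma genes were found in 4 of 18, 2 of 2, 4 of 41 and 1 of 4 endothelial-like cells of sarcomas 1 to 4 (11 of 65, 16.9%). The shares were 77.5%, 86.9%, 52.6% and 45.9% of other cells, and 9.78%, 6.15%, 7.66% and 0% of mural-like cells, 0 of 16 in the last. In the clustered cells alone the count was 6 of 59 (10.2%). At 4000 UMIs it was 3 of 13 (23.1%) clustered cells in sarcoma 1 and 12 of 37 (32.4%) in sarcoma 3, against 22.2% and 12.1% of mural-like cells. The lowest 5% of unnamed-cluster cells by sarcoma-gene share were reached or exceeded by 1 of 14 clustered cells in sarcoma 1 and 3 of 5 in sarcoma 4; in sarcoma 3 that level was 0, which separates no cells. Without sarcoma 3 the share was 29.2% (7 of 24), and with a rule of 3 markers 60.8% (138 of 227). Whether these cells are doublets was not tested, and no doublet caller was run.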

How the data were processed

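The deposited values are raw UMI counts per gene and cell in filtered 10x matrices. Their headers name Cell Ranger 6.0.1, and the submitters' processing notes name mm10. The sources used here give no other setting of the authors. Of 27998 Ensembl features 27722 matched GENCODE vM21 by identifier. The cells, gene lists and tests were chosen with earlier results of these data known. Kept cells were clustered (2000 variable genes, 30 principal components, 15 neighbours, Leiden resolution 1; scanpy 1.11.5, igraph 0.11.9). A cluster was named where at least 3 markers were 4-fold higher and present in 25% of its cells, unless another class had more markers among its 10 leading genes. No doublet caller was run. Counts were summed per library and class and tested with edgeR 4.0.16 (TMM, filterByExpr, quasi-likelihood, Benjamini-Hochberg, threshold 0.05); DESeq2 1.42.0 was an alternative. Libraries needed at least 5 endothelial-like cells. Each class pair from 1 library shares its tumour, so library was the block: deviations from the class means correlated within libraries at 0.42, 0.26 and 0.16 (16081 genes). On counts simulated for the comparison with other cells (14049 genes), the test recovered 90.2% of 16-fold increases (log2 change 4) and 23.8% at log2 change 2, and 54.1% and 17.4% of the same decreases. It made 5 false calls there. For the comparison with mural-like cells (5976 genes) the shares were 100%, 96.2%, 69.4% and 62%, with 25 false calls. Named genes were the 8 rule genes, Smarcb1, tdTomato, Hic1, the highest 2 to 4 genes of each list, 12 genes of at least 100 CPM by ratio to other cells and 6 by spread between libraries. Any further gene named from a list was picked out after its values were seen.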

Additional observations from a re-analysis of the deposited data

Results flagged for a closer look

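Of 29 sets of 4 sarcoma values examined, 4 had 1 sarcoma far from the other 3. Many of the sets were the rule genes or the share of cells passing the rule, which the choice of cells used. The sets also share cells. The nominal rate of about 1 in 20 therefore does not apply, and nothing is read from the number flagged. The lymphatic list summed to 8332 CPM in the endothelial-like cells of sarcoma 3, against 47.3 to 218 in the other sarcomas. The arterial list summed to 3502 CPM in the 5 cells of sarcoma 4, against 0 to 440, and 29 of its 74 UMIs were Gja4 in 1 cell. Among the other kept cells, Smarcb1 stood at 20.4 CPM in sarcoma 3 against 0.474 to 3.02, so the comparison with endothelial-like cells had a higher base there. Hic1 in the other cells stood at 0.897 CPM in sarcoma 4, against 25.8 to 28.2.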

How the results depend on the processing

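The called Smarcb1 difference from other cells did not reverse under the alternatives that were run. Reversal was checked for Smarcb1, tdTomato and Hic1 only, and for the other called genes only their number was followed. The uncalled tdTomato difference from mural-like cells (-0.01) was 0.07 without sarcoma 1 and 0.05 without sarcoma 3. A rule of 3 markers gave 236 cells, a mean share of 0.791%, 8 of the 25 endothelial genes at least 4-fold higher, 60.8% of thinned cells with at least 2 sarcoma genes, a Smarcb1 log2 difference of 1.41 (not called), 8 list genes and 115 genes in all. Thinning to 4000 UMIs gave 35.1% of cells with at least 2 sarcoma genes. Against other cells, counts thinned to 2000 UMIs gave a Smarcb1 difference of 1.26 (not called) and 476 genes. Without the replicate block the Smarcb1 difference was 2.56 (edgeR adjusted p = 0.669), 44 genes were called, and 0 of the list genes, with 1121 genes at an unadjusted p below 0.05. The fits with the block are the ones reported, because the paired classes share a tumour. DESeq2 called 512 genes and 15 list genes against other cells, and 672 genes against mural-like cells, where no filter on low counts gave 1198. Leaving out the cells with lymphatic genes, an alternative chosen after seeing the data, gave 634 genes. The tdTomato difference was called with library-size scaling (2.04), the endothelial-like cluster only (1.82) and, chosen after seeing the data, without cells of many UMIs (1.93).

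Leaving out 1 sarcoma at a time gave 25 to 66 cells, 14.3% to 29.2% of cells with sarcoma genes, Smarcb1 differences of 2.36 to 4.39, tdTomato differences of 0.99 to 1.91, 8 to 47 list genes, 275 to 1149 genes against other cells and 206 to 575 against mural-like cells; the cause was not tested. Depth limits sarcoma 4 (21129 UMIs in 5 cells) and sarcoma 2 (2 cells) most.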

Other observations

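Leukocyte adhesion genes usually taken for endothelial were present outside the endothelial-like cells. Sele, the E-selectin gene, stood at 374, 354, 5.59 and 0.00504 CPM in the other cells of sarcomas 1 to 4 and at 297.5, 259, 0 and 0 CPM in the endothelial-like cells. These include 4 cells of sarcoma 1 and both cells of sarcoma 2 that lay outside the endothelial-like cluster, and no Sele level without them is given. Selp, the P-selectin gene, stood at 76.5, 90.5, 0.834 and 0.0605 CPM in other cells. Cldn5 in other cells stood at 214, 304, 0.961 and 0.00504 CPM, and Cdh5 at 16.0, 0.128, 5.10 and 0.00504. Sarcomas 1 and 2 were thus the higher ones in Sele, Selp and Cldn5, and sarcoma 2 was low in Cdh5. Lyve1 stood at 0.0884, 0.0236, 0.320 and 133 CPM in the other cells.

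The endothelial-like cluster held 4 further cells, all from sarcoma 3 and with 3 markers each. The transgene features CreERT2 and SSM2GFP were rare, with 1 UMI of CreERT2 in the 68 cells and 4 UMIs of SSM2GFP in 4 of them.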
